A study of Mus musculus with 6 samples.

Results

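The 10 genes described here, in mouse pulmonary microvascular endothelial cells, encode the mTOR kinase and proteins that restrain or position it: Ddit4 and Ddit4l, the genes of REDD1 and its relative REDD2, the sestrin genes Sesn1, Sesn2 and Sesn3, the tuberous sclerosis complex genes Tsc1 and Tsc2, the RAG GTPase gene Rragd, the kinase inhibitor gene Deptor and the kinase gene Mtor. They were picked by name from the deposited expression table, where each of the 10 names occurred once among 55232 features. The repletion group was 3 samples of these endothelial cells that shared a culture for 12 h with cells of the mouse tubular epithelial line TCMK-1, from kidney, whose ATP had been depleted and then repleted, which the labels abbreviate IR. The control group was 3 samples kept for 12 h with TCMK-1 cells that had not been treated. The endothelial cells were themselves untreated in both groups and were taken from the lower chamber, and the labels call them a cell line without giving a strain. By its title, the series asks about lung injury after ischemia and reperfusion of the kidney and about the uptake of HMGB1, a nuclear protein released by injured cells, by pulmonary endothelium. Nothing in the labels says that samples of a group were separate cultures, so p-values refer to the spread between these samples alone, and that spread could be technical.

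mTORC1 is a protein kinase complex at the lysosome that promotes growth and translation when amino acids and growth factors are plentiful, and its activity is set mostly through proteins rather than through the transcript of the kinase. REDD1 restrains it by releasing the TSC1-TSC2 complex, which switches off the activating GTPase RHEB. Sestrins restrain it by binding the GATOR2 complex, so that the RAG GTPases do not recruit mTORC1, and DEPTOR binds the kinase itself. Ddit4 and Sesn2 are known as stress-inducible genes, driven by ATF4, by p53 and, for Ddit4, by hypoxia-inducible factors and glucocorticoids. RNA levels do not measure the activity of the complex.

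Libraries held 15582349 to 17817618 counts. In CPM, the counts scaled to a library of fixed size, the 12 endothelial markers summed to 2337 to 2685 in the repletion group and 2249 to 2495 in control, and 4 rose and 2 fell among 11 tested; Pecam1 had 10656 to 14154 counts in each repletion sample and 10933 to 13613 in each control sample. Cldn5, also an endothelial marker, reached at most 3 counts. The 13 tubular markers summed to 16.1 to 20.6 CPM in the repletion group and 14.1 to 17.6 in control, and Krt18, Epcam, Slc34a1 and Umod had no count in any sample. None of the 4 tubular markers tested passed the threshold. The 8 leukocyte markers summed to 223 to 311 CPM in the repletion group and 378 to 417 in control, mostly Cd68, a gene of a lysosomal protein, which fell, while Ptprc had 4 counts in 1 repletion sample and none elsewhere. The 10 fibroblast and mural markers summed to 18.5 to 25.6 CPM in the repletion group and 20.4 to 23.1 in control. The 8 lung epithelial markers summed to 1.57 to 1.99 CPM in the repletion group and 0.224 to 1.07 in control; the 1 tested, Ager, rose, with 22, 22 and 14 counts in the repletion samples and 3, 8 and 1 in the control samples, and Sftpc, Scgb1a1, Nkx2-1 and Hopx had no count. The 5 lymphatic markers summed to 123 to 138 CPM in the repletion group and 78.2 to 103 in control, with 3 of 4 tested markers higher and 1 lower. The part of these marker differences in the values below was not tested. In bulk RNA, fewer cells of a type and less RNA per cell cannot be told apart.

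Of the 10 genes, 9 passed the filter on low counts and were tested, and Rragd was not. In edgeR's quasi-likelihood test with Benjamini-Hochberg adjustment over 13804 features, Ddit4, Sesn2 and Tsc1 fell and Deptor rose in the repletion group, while the other 5 tested genes did not pass the threshold of 0.05. Of all tested features, 39.7% passed, 20.5% as higher and 19.2% as lower, so 4 of 9 genes past the threshold is near the background, and the count says nothing particular about these genes. The CPM of the groups did not overlap in the same 4 genes, 1 higher and 3 lower, against 50.3% of all features, 25.0% higher and 25.4% lower. By size, falls of at least 2-fold made up 2.77% of all features; Ddit4 fell 4.20-fold and ranked 38 by fold among the 2654 features that fell. When each library's trend with feature length and GC content was removed, the split over all features moved to 2191 rises and 3649 falls, against 2830 rises and 2654 falls without that step, and the median of all features moved to -0.10 on the log2 scale, against 0.00.

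**Figure D1:**
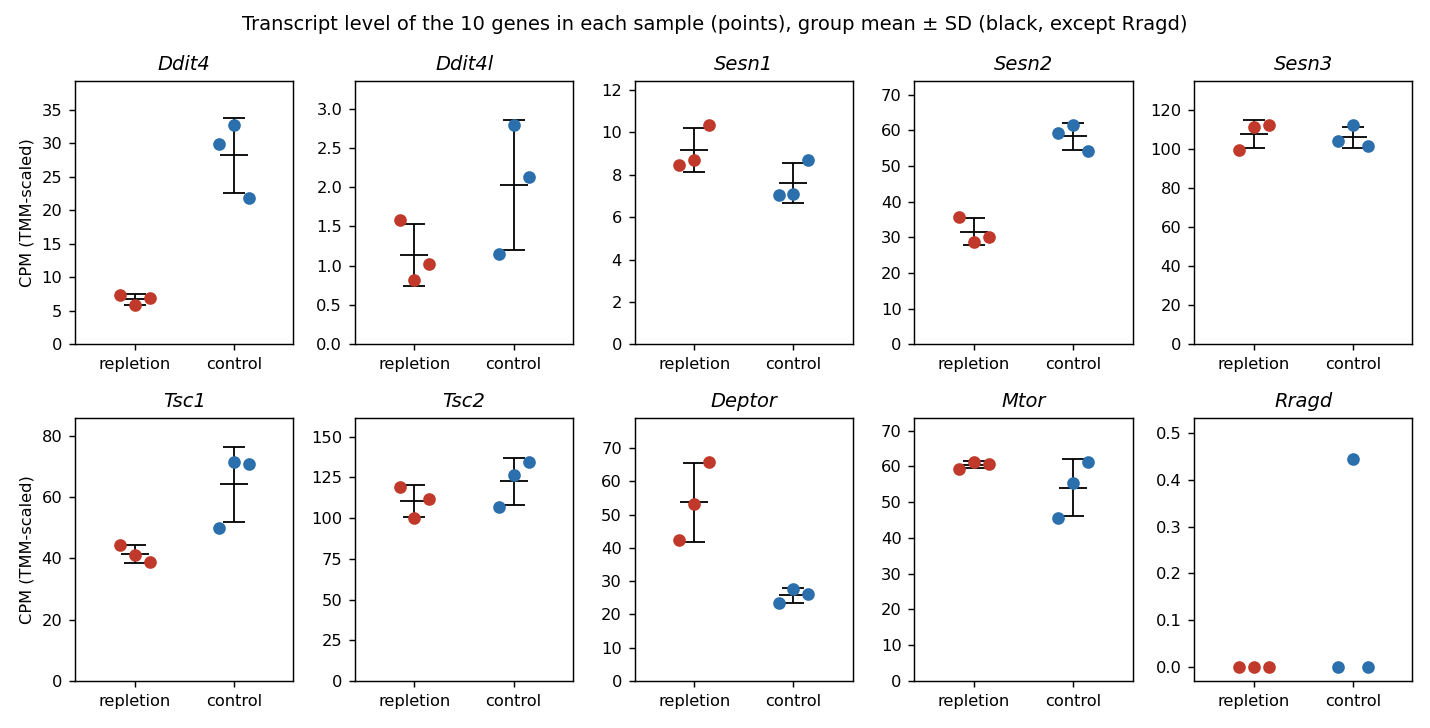
TMM-scaled CPM of the 10 genes in each of 3 repletion and 3 control samples (points), with group mean and SD except for Rragd. Each panel has its own axis, from 0 except in the Rragd panel, where it starts just below 0. The repletion samples lie below every control sample for Ddit4, Sesn2 and Tsc1 and above every control sample for Deptor.

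Ddit4 (ENSMUSG00000020108, chromosome 10, 59949669 to 59951834 on the minus strand in GRCm38) encodes REDD1, the stress-induced activator of the TSC complex. Its level was 7.41, 5.85 and 6.83 CPM in the repletion samples, against 30.0, 32.7 and 21.9 CPM in the control samples. All 3 repletion samples were low and close together, the control samples were all higher and more spread, and the groups did not overlap. The means were 6.70 ± 0.787 CPM in the repletion group and 28.2 ± 5.66 CPM in control (SD, n = 3 each), which is a difference of -2.07 ± 0.19 (SE) on the log2 scale (adjusted p 4.74e-07). The authors' deposited table gives -2.07 for the same gene. Removing the length and GC trend left it at -2.06, and leaving out any 1 sample gave values between -2.22 and -1.96, the first without control replicate 3, the control sample with the lowest level.

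Ddit4l (chromosome 3, 137621612 to 137628333) encodes REDD2, which restrains mTORC1 as REDD1 does. It was scarce, with 27, 13 and 17 counts in the repletion libraries and 18, 44 and 37 counts in the control libraries, and the groups overlapped. Its log2 fold change was -0.82 ± 0.50 (SE), the adjusted p was 0.201, and the 95% interval of -1.87 to 0.22 was the widest of the 9 genes. Per kilobase of transcript, Ddit4 made up 90.9% ± 1.95 of the summed Ddit4 and Ddit4l level in the repletion group and 95.8% ± 1.75 in control (SD, n = 3 each).

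Besides Ddit4, Sesn2 also fell, and Sesn3 is a sestrin gene that did not pass. The sequences upstream of the RefSeq starts of these genes are shown because 7 motifs were looked for in these windows. They are the RefSeq promoter sequences of GRCm38.p6 from 250 to 65 bases before the start, 186 bases that hold no exon of the annotation, given 5′ to 3′ on the gene's strand, with motif matches in capitals. The Ddit4 window is chr10:59951835-59952020 on the minus strand, that of Sesn2 chr4:132510521-132510706 on the minus strand, and that of Sesn3 chr9:14276051-14276236 on the plus strand. The Ddit4 and Sesn2 windows lie outside the deposited gene spans, whereas the Sesn3 window lies inside, because the deposited Sesn3 span begins at 14275067, ahead of the RefSeq start used here.
Ddit4: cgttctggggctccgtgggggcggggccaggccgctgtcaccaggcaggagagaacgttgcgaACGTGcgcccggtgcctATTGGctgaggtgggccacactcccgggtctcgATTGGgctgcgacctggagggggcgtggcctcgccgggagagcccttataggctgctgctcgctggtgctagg
Sesn2: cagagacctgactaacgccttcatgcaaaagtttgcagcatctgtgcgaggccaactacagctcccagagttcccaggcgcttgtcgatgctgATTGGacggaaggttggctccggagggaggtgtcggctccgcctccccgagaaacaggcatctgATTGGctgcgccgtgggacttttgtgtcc
Sesn3: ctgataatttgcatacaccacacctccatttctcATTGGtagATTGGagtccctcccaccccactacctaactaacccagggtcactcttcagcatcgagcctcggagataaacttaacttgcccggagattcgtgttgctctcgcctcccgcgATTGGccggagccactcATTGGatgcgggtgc
Searched on both strands were the hypoxia-inducible factor core ACGTG, the composite of ATF4 and C/EBP TGATGNAA, the CCAAT box of NF-Y, the FOXO motif GTAAACA, the E box CACGTG bound by TFEB, the glucocorticoid receptor half-site AGAACA and the cAMP response element TGACGTCA. The E box would contain the ACGTG core, but no E box was found in these windows. No p53 motif was among those searched. ACGTG occurred once in the Ddit4 window, 187 bases before the start, and in none of the windows of the other members; 11.8% of the 32851 promoters in the table hold it in the same window. CCAAT, read as ATTGG on the gene's strand, occurred 2 times in the Ddit4 window, 2 times in that of Sesn2 and 4 times in that of Sesn3, and it occurs in 26.0% of all promoters. It was also present 3 times in the Mtor window and in each of both Sesn1 windows, so it was found in genes that fell and in genes that did not pass. The shares of promoters that hold the others are 2.47% for TGATGNAA, 2.43% for GTAAACA, 3.90% for CACGTG, 12.4% for AGAACA and 0.658% for TGACGTCA. These motifs had no match in the window of any of the 9 members with a promoter entry, which says only that these letters are not in these windows.

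The sestrin genes differed from each other. Sesn2 (ENSMUSG00000028893, chromosome 4, 132492032 to 132510501 on the minus strand), which encodes the leucine-sensing and most stress-responsive sestrin, stood at 35.8, 28.6 and 30.2 CPM in the repletion samples, against 59.2, 61.5 and 54.2 CPM in the control samples. The groups did not overlap and each varied little. Sesn2 fell by 0.89 ± 0.13 (SE) on the log2 scale, 1.85-fold, at an adjusted p of 4.71e-05, and its values over all 17 alternatives ran from -0.99 to -0.82.

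Sesn1 (chromosome 10, 41809935 to 41908424), best known as a p53 target, stood at 8.46, 8.69 and 10.4 CPM in the repletion samples, against 7.06, 7.11 and 8.71 CPM in the control samples. The highest control sample lay within the repletion range, and the difference of 0.26 ± 0.21 (SE, log2) had an adjusted p of 0.328 and a 95% interval of -0.17 to 0.70. Sesn3 (chromosome 9, 14275067 to 14333101), best known as a FOXO target, stood at 99.6, 111 and 112 CPM in the repletion samples, against 104, 112 and 102 CPM in the control samples. The samples of both groups intermingled, at a log2 difference of 0.02 ± 0.10 (SE), adjusted p 0.876, and a 95% interval of -0.19 to 0.24. This value depended on the processing. With the length and GC trend removed, Sesn3 passed the threshold as lower in the repletion group, at -0.39 (adjusted p 0.00390). Its feature length of 15269 bases was the largest of the 10 genes.

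**Figure D2:**
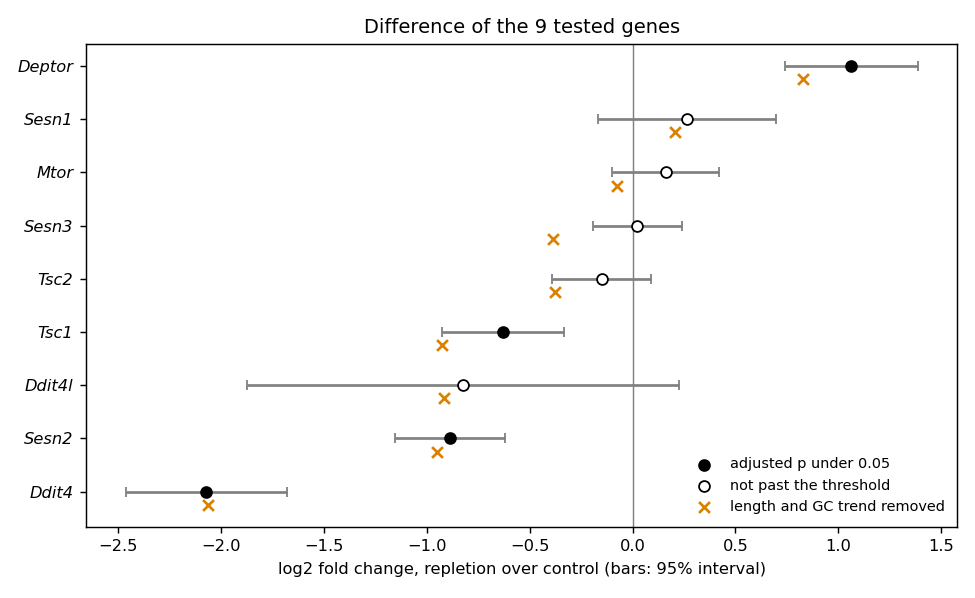
Log2 fold change of the 9 tested genes, repletion over control, with 95% intervals (bars), genes past the threshold as filled points, and values with each library's length and GC trend taken out as crosses. Ddit4 lies lowest at -2.07 and Deptor highest at 1.06, and the cross of Sesn3 at -0.39 lies outside its interval.

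The make-up of the sestrin transcripts differed between the groups. Sesn2 held 54.3%, 46.5% and 46.6% of the summed sestrin level per kilobase in the repletion samples, against 66.5%, 65.9% and 63.8% in the control samples. Sesn3 held 38.4% ± 3.49 in the repletion group and 27.1% ± 0.435 in control, and Sesn1 held 12.5% ± 1.37 in the repletion group and 7.51% ± 1.25 in control (SD, n = 3 each). For each of the 3 genes the shares of the groups did not overlap, and Sesn2 remained the largest in every sample. The shares of a sample add up to a fixed whole, so a lower Sesn2 share by itself raises those of Sesn1 and Sesn3. The 3 results are not independent, and the CPM of Sesn1 and of Sesn3 overlapped between the groups. Shares were not tested, and they depend on the feature length, which for Sesn3 is the union of several transcripts. They were taken with the length and GC trend left in. With that trend removed, Sesn3 stood at -0.39 and Sesn2 at -0.95 on the log2 scale, against 0.02 and -0.89. The size of the difference in shares therefore depends on the processing.

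**Figure D3:**
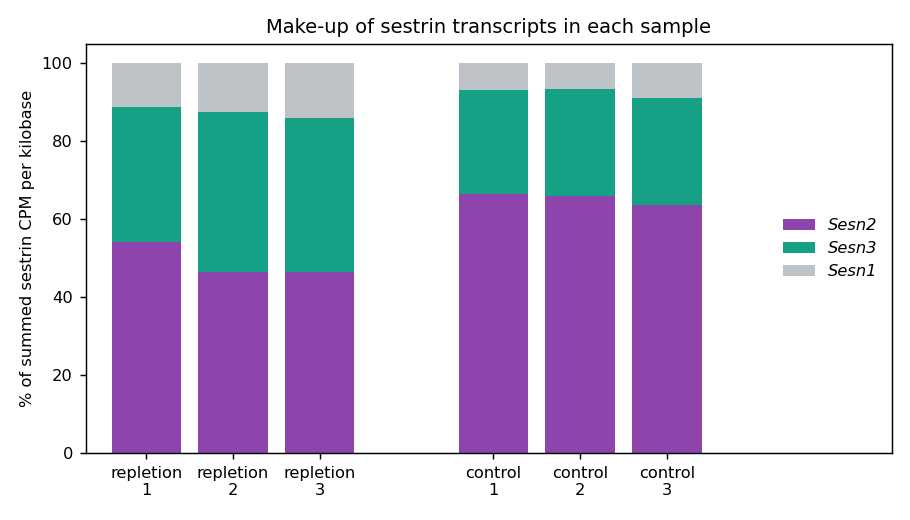
Percent of the summed CPM per kilobase of Sesn1, Sesn2 and Sesn3 in each of 3 repletion and 3 control samples (stacked bars to 100%). Sesn2 takes 46.5% to 54.3% in the repletion samples and 63.8% to 66.5% in the control samples.

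The tuberous sclerosis complex genes encode hamartin (Tsc1), which stabilizes the complex, and tuberin (Tsc2), which carries the activity against RHEB. Tsc1 (ENSMUSG00000026812, chromosome 2, 28641228 to 28691167) stood at 44.5, 41.2 and 38.7 CPM in the repletion samples, against 49.9, 71.6 and 71.0 CPM in the control samples. The groups did not overlap, but control replicate 1 was closer to the repletion samples than to the other controls. Tsc1 fell by 0.63 ± 0.14 (SE) on the log2 scale, 1.55-fold (adjusted p 0.00187); without any 1 sample it ran from -0.79 to -0.55, and with the length and GC trend removed it was -0.92. Tsc2 (chromosome 17, 24595816 to 24632630 on the minus strand) stood at 119, 100.1 and 112 CPM in the repletion samples, against 107, 126 and 135 CPM in the control samples. The groups overlapped, and the log2 difference of -0.15 ± 0.11 (SE) had an adjusted p of 0.314 and a 95% interval of -0.39 to 0.09. With the length and GC trend removed, Tsc2 passed the threshold at -0.38 (adjusted p 0.00428). Exons of Tsc2 overlap those of Pkd1 on the opposite strand, a gene with 20285 counts over the 6 samples and a log2 fold change of -0.08, and reads of the shared bases cannot be assigned without the strand setting, which is not given in the sources used here. Per kilobase, Tsc1 stood at 0.306 ± 0.0268 of the Tsc2 level in the repletion group and 0.423 ± 0.0407 in control (SD, n = 3 each), with no overlap between groups.

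Deptor (ENSMUSG00000022419, chromosome 15, 55112317 to 55259271), the gene of the inhibitor that binds the kinase in both mTOR complexes, moved the other way. It stood at 42.3, 53.1 and 66.0 CPM in the repletion samples, against 23.3, 27.7 and 26.2 CPM in the control samples. The repletion samples were spread widely, and the lowest of them was still above every control. Deptor rose 2.09-fold, or by 1.06 ± 0.15 (SE) on the log2 scale (adjusted p 5.15e-05). It was 0.89 without repletion replicate 3, the highest sample, 1.21 without repletion replicate 1, the lowest of the repletion samples, and 0.83 with the length and GC trend removed. Rises of at least 2-fold made up 7.53% of all features, so a rise of this size was not rare. The overlapping antisense feature Gm9920 had 4 counts in all.

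Mtor (chromosome 4, 148448611 to 148557683), the kinase gene, stood at 59.4, 61.3 and 60.7 CPM in the repletion samples, against 45.5, 55.3 and 61.4 CPM in the control samples. The repletion samples were nearly equal and lay within the upper part of the control range. The log2 difference was 0.16 ± 0.12 (SE), adjusted p 0.321, with a 95% interval of -0.10 to 0.42; with the length and GC trend removed it was -0.07. Per kilobase and relative to Mtor, Deptor stood at 1.01 ± 0.215 in the repletion group and 0.547 ± 0.0525 in control, and Ddit4 at 0.639 ± 0.0850 in the repletion group and 3.08 ± 0.915 in control (SD, n = 3 each). Neither ratio overlapped between the groups.

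Rragd (chromosome 4, 32983037 to 33022180) encodes RagD, a GTPase that pairs with RagA or RagB and is a known target of TFEB and TFE3. It had no counts in the 3 repletion libraries and in 2 control libraries, and 7 counts in control replicate 2. At these depths 3 counts, the limit that a count of 0 allows, correspond to 0.168 to 0.193 CPM, so a level below that was not detectable. The authors' deposited table lists a log2 fold change of -3.73 for Rragd with an adjusted p of 1, which rests on those 7 counts. Rragc, the paralogue that takes the same place in the RAG pair, stood at 137 CPM in the repletion group and 131 CPM in control, 0.07 apart on the log2 scale (adjusted p 0.627).

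Levels per kilobase set the 10 genes in different orders in the groups. In the repletion group Tsc2 was highest at 11.5 CPM per kilobase, followed by Sesn2 at 9.07, Sesn3 at 7.06, Deptor at 6.06, Mtor at 5.98, Ddit4 at 3.82, Tsc1 at 3.50, Sesn1 at 2.30 and Ddit4l at 0.390. Neighbours in that order whose sample ranges overlapped were Sesn3 and Deptor, Deptor and Mtor, and Ddit4 and Tsc1. In control the order was Sesn2 at 16.8, Ddit4 at 16.1, Tsc2 at 12.7, Sesn3 at 6.94, Tsc1 at 5.42, Mtor at 5.35, Deptor at 2.90, Sesn1 at 1.91 and Ddit4l at 0.694. There the overlapping neighbours were Sesn2 and Ddit4, Ddit4 and Tsc2, and Tsc1 and Mtor. By its mean, Ddit4 thus ranked 6 in the repletion group and 2 in control, and Deptor 4 in the repletion group and 7 in control. Ddit4 in control and Deptor in the repletion group overlapped both neighbours, so these ranks are not firm. The orders also depend on the feature length, for which the annotation holds 1 transcript of Ddit4 and 22 of Tsc2.

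The genes whose centred log2 CPM over the 6 samples came closest to that of Ddit4 were Lpin1, Slc25a42, Aldh1l2, Zfp760 and Tmem140, with root mean square differences of 0.22 to 0.28 log2 units. Lpin1 encodes the phosphatidate phosphatase lipin 1, itself a substrate of mTORC1. It stood at 17.3, 16.7 and 16.5 CPM in the repletion samples, against 55.0, 60.1 and 47.5 CPM in the control samples, and like Ddit4 was lowest among the controls in control replicate 3. Aldh1l2, a mitochondrial folate enzyme gene, fell by 1.83 on the log2 scale, and Slc25a42, the gene of a mitochondrial coenzyme A carrier, fell by 1.77. Zfp760 and Tmem140 also fell, with log2 fold changes of -1.60 and -2.00. For every gene picked by this closeness, a change near that of the member follows from the choice. Aldh1l2 and Tmem140 share exon bases with D10Wsu102e and Cyren on the opposite strand, so their values are uncertain. Closest to Sesn2 were Tmem268, Ube2t, Prr13 and Fam214a, at 0.05 to 0.06 log2 units and with log2 fold changes of -0.93 to -0.82. For the 2 sestrin genes that did not pass, the closest were Ets2, Spsb1, Tpm1, Smarcb1 and Sufu for Sesn1, at 0.04 to 0.06, and Dsel, Nedd4, Mad2l1, Sh3bgrl2 and Ralgapb for Sesn3, at 0.02 to 0.03.

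Around the 10 genes, the other parts of the mTOR machinery moved in more than one way. Of 10 subunit and assembly genes of mTORC1 and mTORC2, 6 rose and the others did not pass, with a median log2 fold change of 0.49, against 0.00 over all tested features. Prr5l, the gene of an mTORC2-associated protein, rose by 0.94, Akt1s1, the gene of the mTORC1 inhibitor PRAS40, by 0.70, the mTORC2 subunit gene Mapkap1 by 0.62 and the mTORC1 scaffold gene Rptor by 0.48. With the length and GC trend removed, 3 rose and 1 fell: Rptor stood at 0.15, Telo2 at 0.36 and Tti2 at 0.35 without passing, and Rictor, the mTORC2 scaffold gene, at -0.44 (adjusted p 0.00177, against -0.05 without that step).

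Of 3 tested partners of RHEB and the TSC complex, 1 rose and 1 fell. Tbc1d7, the gene of the third subunit of the TSC complex, rose by 0.80, and Rhebl1, a relative of Rheb, fell by 0.85. Rhebl1 shares exon bases with Dhh and Gm49442, so its value is uncertain. Rheb stood at -0.18 (adjusted p 0.242), and at -0.38 (adjusted p 0.0135) when the length and GC trend was removed, which made 2 falls; without repletion replicate 2 there were also 2 falls. Of 14 genes of the RAG GTPases, the Ragulator that anchors them and their regulators, 1 rose and 5 fell, with a median of -0.05 that was -0.25 with the length and GC trend removed. Flcn, the gene of folliculin, which activates RagC and RagD, fell to 38.0 CPM in the repletion group, against 98.5 CPM in control, a fall of 1.37 on the log2 scale. The Ragulator genes Lamtor4, Lamtor2 and Lamtor5 fell, with log2 fold changes of -1.02, -0.91 and -0.50, as did Rraga at -0.48, whereas Lamtor3 rose by 0.52. With the length and GC trend removed, Slc38a9 and Fnip2 passed as lower too, at -0.36 and -0.31, making 7 falls. When the replicate number was a block as well, there were 5.

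Of 15 genes of the GATOR complexes, of KICSTOR and of nutrient sensors, through which sestrins act, 5 rose and 2 fell, with a median of -0.08 (-0.02 with the length and GC trend removed). Nprl3, a subunit gene of GATOR1, the complex that switches RAG GTPases off, rose by 1.32, but it shares exon bases with Mpg on the opposite strand, so its value is uncertain. Castor2 rose by 1.07, Itfg2 by 0.82, BC048403 by 0.51 and Depdc5, another GATOR1 subunit gene, by 0.42. The third GATOR1 gene Nprl2 fell by 0.61, and the GATOR2 gene Sec13 fell by 0.49. Without control replicate 3 there were 3 rises, and without repletion replicate 3, control replicate 1 or control replicate 3 there was 1 fall. With the length and GC trend removed, Depdc5 stood at 0.08 (adjusted p 0.611), and Wdr59, a GATOR2 gene, was also past the threshold as lower, at -0.40.

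Of 23 genes of the PI3K-AKT and AMPK inputs to the TSC complex, 9 rose and 3 fell, with a median of 0.28. The growth factor receptor gene Igf1r rose to 68.1 ± 8.87 CPM in the repletion group, against 29.7 ± 2.09 CPM in control (SD, n = 3 each), a log2 fold change of 1.197 that was 0.75 with the length and GC trend removed. The adaptor gene Irs2 rose by 1.10 on the log2 scale. Irs1, Pik3cb and Pdpk1 rose by 0.74, 0.43 and 0.33, and none of these 3 passed with the length and GC trend removed. The genes that fell were Stradb and Strada, for partners of the AMPK-activating kinase LKB1, at -1.07 and -0.63, and the AMPK catalytic gene Prkaa2 at -0.34, which was -0.52 with the trend removed. Of 16 genes of mTORC1 substrates and effectors, 3 rose and 7 fell, with a median of -0.16. Those that fell included Lpin1 at -1.69, the translation inhibitor gene Pdcd4 at -1.19, Eif4ebp1 at -0.98 and the autophagy kinase gene Ulk1 at -0.60. Eif4ebp2, a relative of Eif4ebp1 with the same role in blocking cap-dependent translation, rose by 0.79. Without control replicate 2 or control replicate 3, 1 gene of this list rose.

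**Figure D4:**
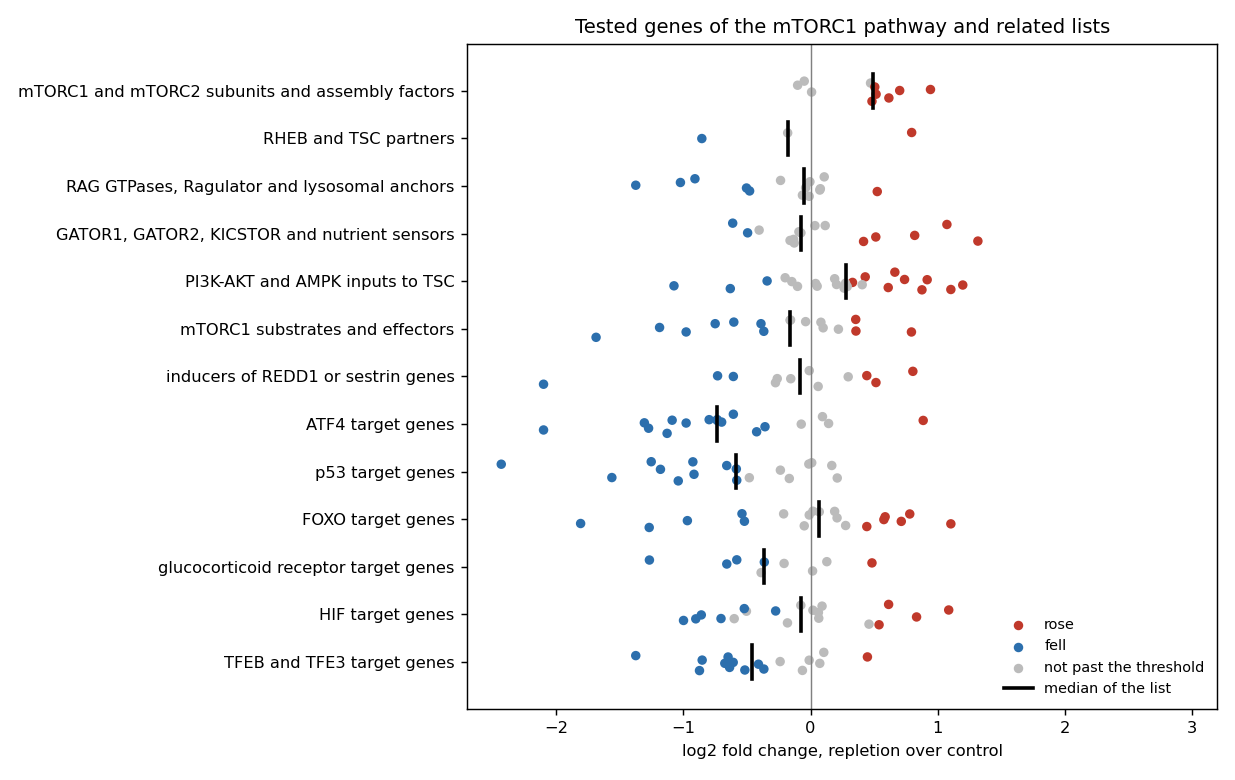
Log2 fold change, repletion over control, of each tested gene (points) in 13 lists, coloured by whether it rose, fell or did not pass the threshold, with the list median (black bar). The medians of the ATF4, p53 and TFEB and TFE3 target lists lie at -0.73, -0.58 and -0.46.

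Regulators and other targets of the pathways known to induce Ddit4 and the sestrin genes were set beside them; several genes are in more than one list. Of 12 transcription factor genes, 3 rose and 3 fell, with a median of -0.08 (-0.16 with the length and GC trend removed). Ddit3, the gene of CHOP, which works with ATF4, fell by 2.10, though it shares exon bases with Mars and other features, so its value is uncertain. Nfe2l2, the gene of NRF2, fell by 0.73, and Cebpb fell by 0.61, whereas Sp1 rose by 0.80, Foxo1 by 0.44 and the glucocorticoid receptor gene Nr3c1 by 0.51. For Cebpb the groups overlapped, at 34.5 ± 16.8 CPM in the repletion group and 52.6 ± 8.05 CPM in control (SD, n = 3 each). Foxo1 stood at 0.17 (adjusted p 0.286) when the length and GC trend was removed. Atf4 stood at -0.28 (adjusted p 0.109), Trp53 at -0.16 (0.293) and Hif1a at 0.06 (0.723).

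Of 17 ATF4 target genes apart from the members, 1 rose and 13 fell, with a median of -0.73, and of 17 p53 target genes, 10 fell and 7 were not past the threshold, with a median of -0.58. In the ATF4 list Nupr1, the gene of a stress-induced chromatin protein, fell by 1.13, and the amino acid transporter gene Slc3a2 fell by 0.73, while Slc7a11, its partner in cystine transport, rose by 0.89 (0.52 with the length and GC trend removed). In the p53 list Btg2, an antiproliferative gene, fell by 2.43, and Plk2 fell by 1.04, while Zmat3 stood at -0.01 (adjusted p 0.935) and Ccng1 at -0.17 (0.231). Zmat3 passed as lower, at -0.39, with the length and GC trend removed, and 1 p53 target rose without repletion replicate 1. Of 16 TFEB and TFE3 target genes, 1 rose and 10 fell, with a median of -0.46. Beside Flcn, the melanosomal glycoprotein gene Gpnmb fell by 0.61, and the lysosomal calcium channel gene Mcoln1 fell by 0.41. Uvrag rose by 0.45 and stood at 0.20 (adjusted p 0.140) when the length and GC trend was removed.

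The FOXO, hypoxia and glucocorticoid lists moved both ways. Of 19 FOXO target genes, 6 rose and 5 fell, with a median of 0.07 (0.04 with the length and GC trend removed); Trib1, a pseudokinase gene, rose by 0.78 and Cited2 by 0.58, and Gadd45a and Ccng2, growth arrest genes, fell, with log2 fold changes of -1.81 and -1.27. Without repletion replicate 2 or repletion replicate 3, 3 FOXO targets fell. Gadd45a shares exon bases with E230016M11Rik, so its value is uncertain. Of 19 hypoxia-inducible factor target genes, 4 rose and 6 fell, with a median of -0.08 (-0.15 with the trend removed). Vegfa, the vascular growth factor gene, fell by 1.00, with Adm at -0.90 and Ndrg1 at -0.86 also lower. Pdk1 rose by 1.09 and the oxygen sensor gene Egln3 by 0.61, though the groups overlapped for Egln3. Of 9 glucocorticoid receptor target genes, 1 rose and 4 fell, with a median of -0.36: Tsc22d3, the gene of the leucine zipper protein GILZ, fell by 1.27, Fkbp5 fell by 0.36 (-0.60 with the trend removed), and the kinase gene Sgk1 rose by 0.48. Over the 13 lists with each gene counted once, 39 of 177 tested genes rose and 65 fell, with a median of -0.10.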

How the data were processed

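RNA was sequenced from 6 samples, 3 in each group, grouped by sample title. The deposited counts are whole numbers per feature, per the file headers, and the deposited FPKM, log2 fold change and p-values are the authors' own; the FPKM equal the counts per length with a scaling factor per sample and were not used. Build GRCm38.p6, DESeq2 1.20.0, HISAT2 2.0.5 and featureCounts 1.5.0-p3 are named, without roles, in the submitters' processing notes; the deposited mean per group is a scaled count (a signal) that was not used here. From the deposited counts, 13804 features passed edgeR's filterByExpr and were tested with R 4.3.3, edgeR 4.0.16 (TMM factors of 0.970 to 1.03, glmQLFit and glmQLFTest, two-sided, Benjamini-Hochberg). CPM are TMM-scaled on the counts of tested features; marker sums use the whole library. The SE comes from the F statistic. Replicates differed by a chi-square of 8.56 to 23.3 per feature.

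Members and lists were chosen with earlier results of these data known. Named are all members, the gene of smallest p per direction in each list, and the 5 protein-coding genes most like each of Ddit4, Sesn1, Sesn2 and Sesn3 (mean log2 CPM of at least 3). Other list genes were picked after their values were seen. A few genes that the rule or the lists hold are not reported here. Overlaps and GC content come from GENCODE M21, also on GRCm38. Near-identical copies were sought with BLAST at 95% identity over at least 30% of the longest transcript, and none was found for the members. The test was tried on simulated counts. Alternatives used limma 3.58.1, DESeq2 1.42.0, other scalings and filters, a fit restricted to protein-coding genes, the replicate number as a block, removal of the trend with length and GC content (splines of 5 degrees of freedom), and each replicate left out.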

Additional observations from a re-analysis of the deposited data

How the results depend on the processing

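Ddit4, Sesn2 and Tsc1 remained lower and Deptor higher, each past the threshold, in all 17 alternatives. Removal of the length and GC trend, alone or with the replicate block, raised the number of members that fell to 5, against 3, by adding Sesn3 at -0.39 (adjusted p of 0.00390 alone and 0.0138 with the block) and Tsc2 at -0.38 (0.00428 and 0.0147). Mtor turned to -0.074 and, with the block, -0.071. Sesn3 also changed sign without the filter (-0.013) and ranged from -0.0077 to 0.078 when 1 replicate was left out. The cause was not tested. With no filter, the median of all features was 0.13 on the log2 scale.

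Replicate numbers gave no sign of pairing the samples, with correlations of -0.08, -0.03 and 0.06 between same-numbered deviations. Between samples of different number the correlations ran from -0.06 to 0.08. With 3 samples in each group, such values over all tested features cannot exclude a pairing. With the replicate block, 2485 features rose and 2353 fell, and Ddit4, Sesn2, Tsc1 and Deptor stood at -2.06, -0.89, -0.61 and 1.04. The block changed no call among the members.

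Counts in the 13 lists were small, and 23 of their counts under the alternatives differed by over 1.5 times. With the trend removed, partners of RHEB had 2 falls, against 1, GATOR and sensor genes 4 against 2, and the TFEB and TFE3 list no rise against 1. Slc7a11 did not pass with the block and the trend removed (0.49, adjusted p of 0.0616). Depth limits Ddit4l and Rragd, and the floor of 3 counts covers counting error only.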
